A study of Mus musculus with 8 samples.

Results

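The genes described here encode chaperones and stress factors of the endoplasmic reticulum, the compartment in which secreted and membrane proteins fold. They were chosen by name, with earlier results of these data known: Hspa5, Hsp90b1, Sdf2l1, Creld2, Manf, Hyou1, Pdia4, Xbp1, Herpud1 and Dnajb9. All 10 were measured by a probe set that carries 1 gene symbol, among 19938 genes in all. Expression was read on Affymetrix whole-transcript arrays in peritoneal macrophages of C57BL/6J mice, which enter the abdominal cavity after an injection of thioglycollate and were taken 5 days later. The 4 unloaded arrays carry cells cultured with the agent "none", and the 4 acLDL arrays carry cells cultured with acetylated low-density lipoprotein, a chemically altered lipoprotein whose uptake by scavenger receptors fills the cell with cholesterol. Both groups were kept in DMEM with serum. The sample protocols give 3 days and 20 µg/mL acLDL, the series description gives 2 days and 50 µg/mL, and the exposure is therefore not settled. The series description calls the 4 arrays of a condition independent biological replicates, but nothing says how animals were spread over cultures, so the spread between arrays may be in part technical. Whether fewer cells of a kind or less RNA per cell lies behind a difference cannot be told apart in such bulk samples.

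When unfolded proteins accumulate in the endoplasmic reticulum, the membrane sensors IRE1, PERK and ATF6 start the unfolded protein response, which slows translation and raises chaperones, folding enzymes and the machinery that sends misfolded proteins for degradation. IRE1 splices the Xbp1 messenger, whose product is a transcription factor, and cleaved ATF6 acts on promoters that carry an endoplasmic reticulum stress element (ERSE). In macrophages, free cholesterol that reaches the membrane of the endoplasmic reticulum is a known trigger of this response. The array reads the total Xbp1 transcript, so spliced and unspliced forms are not separated here.

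Stress elements in the promoters are shown first, since ATF6 and XBP1 are known to act through them. RefSeq promoter windows (assembly GRCm38.p6), from 250 bases before to 50 after the annotated start, were in the table used for 8 of the 10 genes, Manf and Hyou1 being the others. The ERSE was searched on both strands as CCAAT and CCACG with any 9 bases between them, and the related ERSE-II as ATTGG and CCACG with any 1 base between them. Hspa5, Hsp90b1 and Creld2 held an ERSE, and Herpud1 held an ERSE-II. Of 32851 windows, 39 (0.119%) held an ERSE and 12 (0.0365%) an ERSE-II. The part that both elements share, CCACG, stood in 32.8% of all windows and in 7 of the 8. The 250 bases before the start follow, 5′ to 3′ along each gene. They lie at chr2:34771840-34772089 (plus strand) for Hspa5, chr10:86705445-86705694 (minus strand) for Hsp90b1, chr15:88819396-88819645 (plus strand) for Creld2, chr8:94386179-94386428 (plus strand) for Herpud1 and chr16:17132384-17132633 (minus strand) for Sdf2l1. Capitals mark the ERSE in the promoters of Hspa5, Hsp90b1 and Creld2, the ERSE-II in that of Herpud1 and, for Sdf2l1, which held neither and had the largest difference of the 10 genes, each CCACG on either strand.
Hspa5: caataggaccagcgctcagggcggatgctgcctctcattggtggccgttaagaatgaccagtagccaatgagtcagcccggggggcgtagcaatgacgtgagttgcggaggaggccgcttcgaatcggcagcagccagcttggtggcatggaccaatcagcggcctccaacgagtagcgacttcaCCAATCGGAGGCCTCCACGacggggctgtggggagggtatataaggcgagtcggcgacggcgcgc
Hsp90b1: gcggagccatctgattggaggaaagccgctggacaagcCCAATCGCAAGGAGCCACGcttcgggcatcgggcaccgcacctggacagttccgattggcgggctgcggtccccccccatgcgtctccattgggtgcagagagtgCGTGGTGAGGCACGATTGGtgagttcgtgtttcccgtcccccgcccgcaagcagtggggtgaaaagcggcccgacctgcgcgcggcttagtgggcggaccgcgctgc
Creld2: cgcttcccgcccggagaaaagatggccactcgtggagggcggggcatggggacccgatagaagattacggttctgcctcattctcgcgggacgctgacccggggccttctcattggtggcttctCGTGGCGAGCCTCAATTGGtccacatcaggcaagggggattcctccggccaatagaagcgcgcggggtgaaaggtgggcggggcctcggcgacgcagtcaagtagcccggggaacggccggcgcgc
Herpud1: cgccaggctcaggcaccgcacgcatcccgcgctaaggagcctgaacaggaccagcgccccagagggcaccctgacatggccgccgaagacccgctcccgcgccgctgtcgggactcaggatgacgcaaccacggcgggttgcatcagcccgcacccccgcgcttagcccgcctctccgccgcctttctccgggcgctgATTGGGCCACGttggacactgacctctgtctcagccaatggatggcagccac
Sdf2l1: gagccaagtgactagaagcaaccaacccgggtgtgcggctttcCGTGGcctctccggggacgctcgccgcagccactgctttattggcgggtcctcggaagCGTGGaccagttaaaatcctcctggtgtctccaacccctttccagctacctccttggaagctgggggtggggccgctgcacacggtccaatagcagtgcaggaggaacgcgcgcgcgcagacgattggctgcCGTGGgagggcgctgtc
The Hspa5 match began at -65, counted from the start, on the strand of the gene. Hsp90b1 had a match on each strand, beginning at -212 and -107, and the Creld2 match, at -126, was on the opposite strand. A match describes the letters only, and the absence of one says nothing of the factors that act on a gene.

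The question put to these genes was whether acLDL loading altered their expression. The chaperone genes did not move as a block. Sdf2l1 rose 1.61-fold with acLDL, Creld2 rose 1.28-fold, and Herpud1 and Manf rose 1.21-fold and 1.20-fold, while Dnajb9 fell 1.18-fold and Hspa5, the central chaperone of the compartment, fell 1.15-fold. Hyou1, Xbp1, Pdia4 and Hsp90b1 did not pass. With limma's test and Benjamini-Hochberg adjustment over all genes (adjusted p under 0.05), 4 of the 10 rose and 2 fell, against 12.9% of all genes that rose and 10.5% that fell (23.3% changed). The median log2 difference of the 10 genes was 0.14, against 0.00 over all genes tested. In 6 of the 10 the acLDL and unloaded arrays did not overlap, against 25.6% of all genes.

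**Figure D1:**
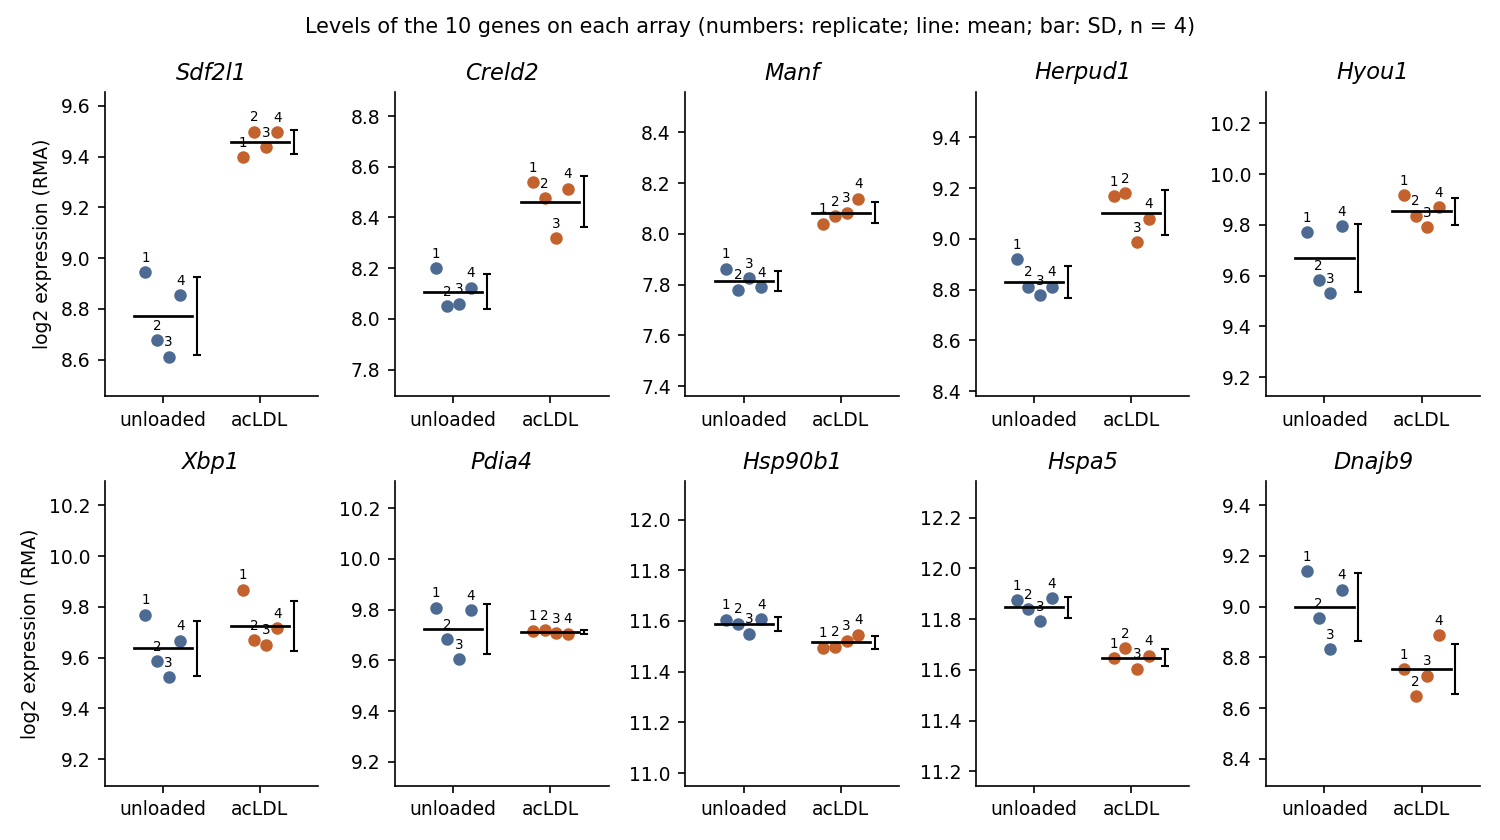
Log2 expression (y axis) of each of the 10 genes on the 4 unloaded and 4 acLDL arrays; every panel spans the same number of log2 units, numbers are replicates, lines are means and bars are SD (n = 4). The 4 acLDL arrays lie above all 4 unloaded arrays for Sdf2l1, Creld2, Manf and Herpud1 and below them for Hsp90b1 and Hspa5, and the groups overlap in the other 4 panels.

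Among the chaperones proper, Hspa5 encodes BiP, the Hsp70 of the endoplasmic reticulum, which holds unfolded chains and keeps the stress sensors inactive. Its log2 level was 11.88, 11.84, 11.79 and 11.88 on unloaded arrays 1 to 4 and 11.65, 11.69, 11.60 and 11.66 on acLDL arrays 1 to 4. All acLDL arrays were below all unloaded ones. The log2 difference, acLDL minus unloaded, was -0.20 ± 0.06 (SE; limma adjusted p = 0.0233). It no longer passed once unloaded array 4 (adjusted p = 0.0612) or acLDL array 1 (0.0542), 3 (0.0659) or 4 (0.0515) was dropped, although the difference stayed between -0.22 and -0.18 whichever of the 8 arrays was dropped. Over all alternatives the adjusted p ran from 0.000128 to 0.0893, the latter when unloaded arrays 1 and 4 were dropped, which was tried only after seeing the data.

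Hsp90b1 encodes GRP94, the Hsp90 of the compartment, which folds integrins and Toll-like receptors. The unloaded arrays read 11.60, 11.59, 11.55 and 11.61 and the acLDL arrays 11.49, 11.50, 11.52 and 11.55 on the log2 scale. The groups did not overlap, yet the difference of -0.07 did not pass (95% interval -0.19 to 0.05; limma adjusted p = 0.397), since limma shares its estimate of the spread over all genes.

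Hyou1 encodes GRP170, which exchanges nucleotide on BiP and also holds unfolded chains. Levels were 9.77, 9.58, 9.53 and 9.80 on the unloaded arrays and 9.92, 9.84, 9.79 and 9.87 on the acLDL arrays (log2). Unloaded array 4 reached the range of the acLDL arrays, array 1 lay just below it, and arrays 2 and 3 lay further down. The difference of 0.18 ± 0.07 (log2, SE) did not pass (limma adjusted p = 0.0875, with a 95% interval from 0.03 to 0.34). It depended on the unloaded arrays used, being 0.30 (adjusted p = 0.00996) without unloaded arrays 1 and 4 and 0.07 (adjusted p = 0.501) without arrays 2 and 3, the extremes over all alternatives, and these pairs were left out after seeing the data. Repeating the quantile normalisation (0.0339), cyclic loess (0.0307) and a trended robust prior (0.0269) each brought it past the threshold.

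Sdf2l1 encodes a small resident protein that binds BiP and its partner ERdj3 and keeps misfolded proteins soluble. It read 8.94, 8.68, 8.61 and 8.85 on the unloaded arrays and 9.40, 9.50, 9.44 and 9.50 on the acLDL arrays (log2). The lowest acLDL array lay well above the highest unloaded one. The difference of 0.69 ± 0.08 (log2, SE; limma adjusted p = 3.26e-05) was the largest of the 10 genes and ran from 0.56 to 0.81 over all alternatives. Relative to Hspa5 on the same array, the log2 ratio of Sdf2l1 rose by 0.89.

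Among the cochaperones and folding factors, Dnajb9 encodes ERdj4, a J protein that works with BiP and can hold IRE1 in its inactive state. Its levels were 9.14, 8.95, 8.83 and 9.07 on the unloaded arrays and 8.75, 8.65, 8.73 and 8.89 on the acLDL arrays (log2). The highest acLDL array overlapped unloaded array 3. The fall of 0.24 on the log2 scale (SE 0.08; limma adjusted p = 0.0363) no longer passed when 1 of 6 arrays was left out, the difference then lying between -0.26 and -0.20. These were unloaded array 1 (adjusted p = 0.0893), 2 (0.0517) or 4 (0.0935), or acLDL array 1 (0.0773), 2 (0.108) or 3 (0.0803). Without unloaded arrays 1 and 4, left out after seeing the data, the difference was -0.14 (adjusted p = 0.239, the highest of a range that began at 0.00756).

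Creld2 encodes a resident protein with epidermal growth factor-like repeats that is released under stress. The unloaded arrays read 8.20, 8.05, 8.06 and 8.12 and the acLDL arrays 8.54, 8.48, 8.32 and 8.51 (log2), without overlap. It rose by 0.35 ± 0.07 (log2, SE; limma adjusted p = 0.00193). Manf, which encodes a small protein first known as a neurotrophic factor and held in the compartment through BiP, read 7.86, 7.78, 7.82 and 7.79 on the unloaded arrays and 8.04, 8.07, 8.08 and 8.14 on the acLDL arrays. Its arrays were the closest together of the genes that rose, with an SD of 0.04 in each group. The rise was 0.27 ± 0.06 (log2, SE; limma adjusted p = 0.00429), and 0.17 (adjusted p = 0.0365, range over all alternatives 0.00163 to 0.0365) after a trend with genomic span was removed from each array.

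Pdia4 encodes ERp72, a disulfide isomerase. It stood at 9.81, 9.68, 9.61 and 9.80 on the unloaded arrays and at 9.72, 9.72, 9.71 and 9.71 on the acLDL arrays (log2). The acLDL arrays were nearly identical and lay inside the unloaded range. The difference was -0.01 (95% interval -0.15 to 0.13; limma adjusted p = 0.920).

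Herpud1 encodes a membrane protein of the degradation machinery that works with the ubiquitin ligase HRD1. Its levels were 8.92, 8.81, 8.78 and 8.81 on the unloaded arrays and 9.17, 9.18, 8.99 and 9.08 on the acLDL arrays (log2). No unloaded array reached the lowest acLDL array, and the rise was 0.27 ± 0.07 (log2, SE; limma adjusted p = 0.00838). Xbp1 itself read 9.77, 9.59, 9.52 and 9.67 on the unloaded arrays and 9.87, 9.67, 9.65 and 9.72 on the acLDL arrays. These ranges overlapped broadly, and the difference of 0.09 did not pass (95% interval -0.07 to 0.25; limma adjusted p = 0.421).

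**Figure D2:**
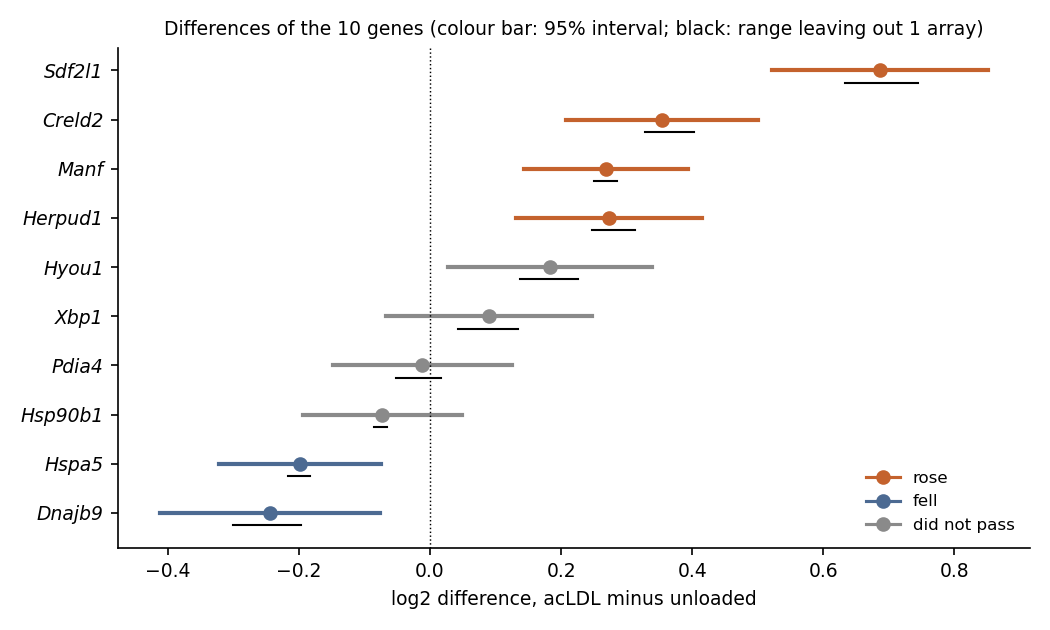
Log2 difference, acLDL minus unloaded (x axis), of each of the 10 genes with its 95% interval from limma (coloured) and the range of the difference over the 8 fits that drop a single array (black). Sdf2l1, Creld2, Manf and Herpud1 lie to the right of 0 and Hspa5 and Dnajb9 to the left, and the intervals of Xbp1, Pdia4 and Hsp90b1 include 0.

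The 4 rises passed in all 20 alternatives run, 2 of them added after seeing the data, and the 2 falls did not. Most of the other genes also differed from Hspa5 within an array. The log2 ratio to Hspa5 was higher on all 4 acLDL arrays than on all 4 unloaded arrays for 8 of the other 9 genes, Dnajb9 being the exception, against 40.2% of all genes. The smallest of these 8 changes in ratio was 0.13, for Hsp90b1. A ratio of this kind shows unequal change and not which gene moved. Hspa5 itself fell by 0.20, so the ratio of Pdia4 rose by 0.19 although Pdia4 differed by only -0.01 (log2).

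Within the unloaded group, arrays 1 and 4 both lay above arrays 2 and 3 in 9 of the 10 genes, Manf being the exception, against 28.9% of all genes. The order was not particular to the 10 genes. It held in 13 of 18 other chaperones and lectins of the compartment, in 17 of 21 genes of vesicle transport and in 8 of 11 macrophage markers, though in 7 of 18 genes of the arm from PERK to ATF4. The same pairs of unloaded arrays separated along the second principal component of all genes, which held 18.0% of the variance. They also differed in how signal varied with genomic span, the Spearman correlation across 11627 genes being 0.23 and 0.21 on arrays 1 and 4 and -0.02 and -0.05 on arrays 2 and 3. On the acLDL arrays it was -0.12, -0.05, -0.20 and -0.01. With a trend with span removed from each array, the 6 calls stayed as they were, with Sdf2l1 at 0.59, Hspa5 at -0.29 and Dnajb9 at -0.34 (log2).

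**Figure D3:**
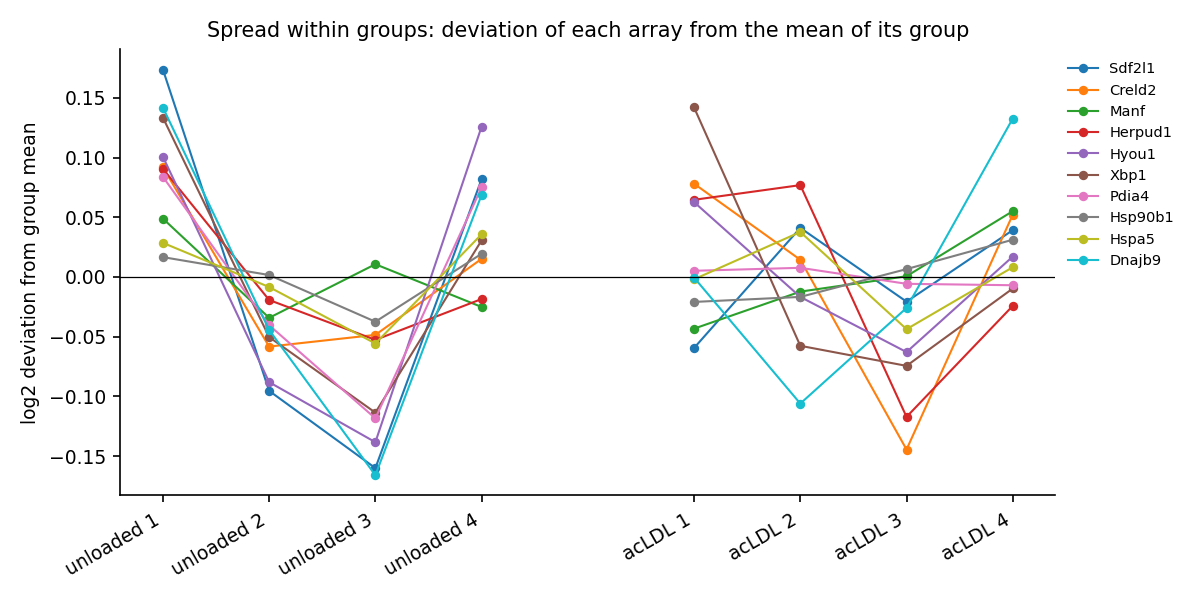
Log2 deviation of each array from the mean of its own group (y axis) for the 10 genes, with the 4 unloaded arrays on the left and the 4 acLDL arrays on the right; lines join the values of a gene and imply no order. Unloaded arrays 1 and 4 lie above unloaded arrays 2 and 3 for 9 of the 10 genes.

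Genes whose levels over the 8 arrays most resembled the mean of the 10 genes, each first scaled to unit SD, were Pex3, Efr3a, Tango2, Etnk1 and Nedd4, with Pearson correlations of 0.996, 0.983, 0.982, 0.980 and 0.980 among 11643 genes above background. Some of the 10 genes rose and others fell, so the difference between the groups partly cancels in their mean. That mean was 0.444 and 0.143 on unloaded arrays 1 and 4, and -0.505 and -0.925 on unloaded arrays 2 and 3. It ran from -0.102 to 0.415 on the acLDL arrays. None of the 5 similar genes passed in the comparison, with limma adjusted p-values from 0.296 to 0.449, which follows in part from this choice. The shared pattern runs over arrays that also share their overall differences. The differences of these 5 genes depended on the unloaded arrays used. Without unloaded arrays 1 and 4, left out after seeing the data, Nedd4 differed by 0.33 (limma adjusted p = 0.00832), against 0.12 with all arrays, and Pex3 (0.0356), Tango2 (0.0302) and Etnk1 (0.0458) passed too, while Efr3a did not (0.0989). Without arrays 2 and 3 none of the 5 passed (limma adjusted p from 0.432 to 1), and Nedd4 differed by -0.08.

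The rest of the pathway was read from 8 lists of 150 measured genes, of which 29 rose, 22 fell and 99 did not pass (34.0% changed, against 23.3% of all genes), with a median log2 difference of 0.02. With a list of heat shock proteins outside the endoplasmic reticulum added, 164 genes held 32 that rose and 26 that fell (35.4% changed). For these 164 the split was 32 higher and 34 lower after removal of the trend with span. Removal of unloaded arrays 1 and 4, after seeing the data, gave 42 higher and 17 lower. Removal of unloaded arrays 2 and 3, also after seeing the data, gave 27 higher and 33 lower. The balance of rises and falls thus depended on the unloaded arrays used. The 23.3% of all genes includes genes below background. In the fit of the 11653 genes above background alone, 4481 were called, and 68 of the 153 listed genes in it. Of the 10 chaperone and stress genes, all above background, 6 were called in that fit. Most listed genes lie above background too. A share of the 10 genes or of a list above 23.3% is therefore not by itself an excess over expressed genes.

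Of 18 other chaperones and lectins of the compartment, 2 rose, 3 fell and 13 did not pass (27.8% changed, against 23.3% of all genes). Cnpy3, a chaperone of Toll-like receptors, rose by 0.44, and Dnajc10, which encodes the reductase ERdj5, and Hspa13, an atypical Hsp70, each fell by 0.34 on the log2 scale. The Hspa13 call was lost without unloaded arrays 1 and 4 (limma adjusted p = 0.0549, the highest of its alternatives, against 0.00626 with all arrays). Folding enzymes held the largest single rise. Of 21 disulfide and proline isomerases 5 rose, 2 fell and 14 did not pass (33.3% changed). Fkbp2, a prolyl isomerase of the compartment, went from 9.17 to 10.55 (log2), a 2.60-fold rise (limma adjusted p = 1.79e-08). Ppib, which encodes cyclophilin B, rose by 0.58, while Tmx3, a membrane-bound disulfide isomerase, fell by 0.58 on the log2 scale.

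Of 23 further genes of the degradation machinery 3 rose, 1 fell and 19 did not pass (17.4% changed, against 23.3% of all genes). Stub1, which encodes the ubiquitin ligase CHIP, rose by 0.41, Ube2j1, a ubiquitin-conjugating enzyme of the membrane, rose by 0.37, and Ngly1, which strips glycans from exported proteins, fell by 0.36 on the log2 scale. Among 14 sensors and regulators 3 rose, 3 fell and 8 did not pass (42.9% changed). The sensor genes differed from one another. Atf6 fell from 9.33 to 9.05 (log2; limma adjusted p = 0.00490), whereas its paralog Atf6b rose from 8.58 to 9.11 (limma adjusted p = 0.000113). Ern1, which encodes IRE1 alpha, differed by 0.12 (95% interval -0.03 to 0.27) and Eif2ak3, which encodes PERK, by -0.09 (95% interval -0.23 to 0.05), and neither passed. Wfs1, a membrane protein that restrains ATF6, rose by 0.55, and Nfyb, a subunit of the CCAAT-binding factor NF-Y, fell by 0.43 on the log2 scale.

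Entry, glycosylation and export also went both ways. Of 18 genes of the translocon and signal peptide processing 3 rose, 5 fell and 10 did not pass. The share changed was 44.4%, against 23.3% of all genes, and 5 changed in all without unloaded array 4 or without acLDL array 3. Ssr4 and Ssr2, subunits of the translocon-associated protein complex, rose by 0.85 and 0.49, and Srpr, the receptor of the signal recognition particle, fell by 0.43 on the log2 scale. Of 17 genes of N-glycosylation and glycan trimming 4 rose, 1 fell and 12 did not pass (29.4% changed). Dad1 and Ddost, subunits of the oligosaccharyltransferase, rose by 0.84 and 0.47, and Mogs, a trimming glucosidase, rose by 0.34. Of 21 genes of vesicle transport 3 rose, 4 fell and 14 did not pass (33.3% changed). This count of 7 changed genes was 4 without unloaded array 4 or without acLDL array 1, 2 or 4, and 11 after removal of the trend with span. Sec31a, a coat subunit of vesicles that leave the compartment, rose by 0.30, and the small GTPase genes Arf4 and Sar1a fell by 0.37 and 0.36 on the log2 scale.

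In the arm that runs from PERK to the transcription factor ATF4, 6 of 18 genes rose, 3 fell and 9 did not pass. The share changed was 50%, against 23.3% of all genes. Asns, the asparagine synthetase gene, rose by 1.15, Sesn2, a stress-induced inhibitor of growth signalling, by 0.61, and Psat1, of serine synthesis, by 0.51 on the log2 scale. The genes that follow were named after their values were seen. Ddit3, the gene of the stress factor CHOP, differed by 0.01 (95% interval -0.15 to 0.18) and did not pass. Nor did Atf4 itself, which differed by -0.15 (95% interval -0.31 to 0.01). Besides Asns, Sesn2 and Psat1, the genes that rose were Cebpb, Trib3 and Atf5, by 0.51, 0.47 and 0.46 on the log2 scale. The 3 genes that fell were Aldh1l2, Cebpg and Atf3, by 0.27, 0.24 and 0.19 on the log2 scale, with Aldh1l2 below background.

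**Figure D4:**
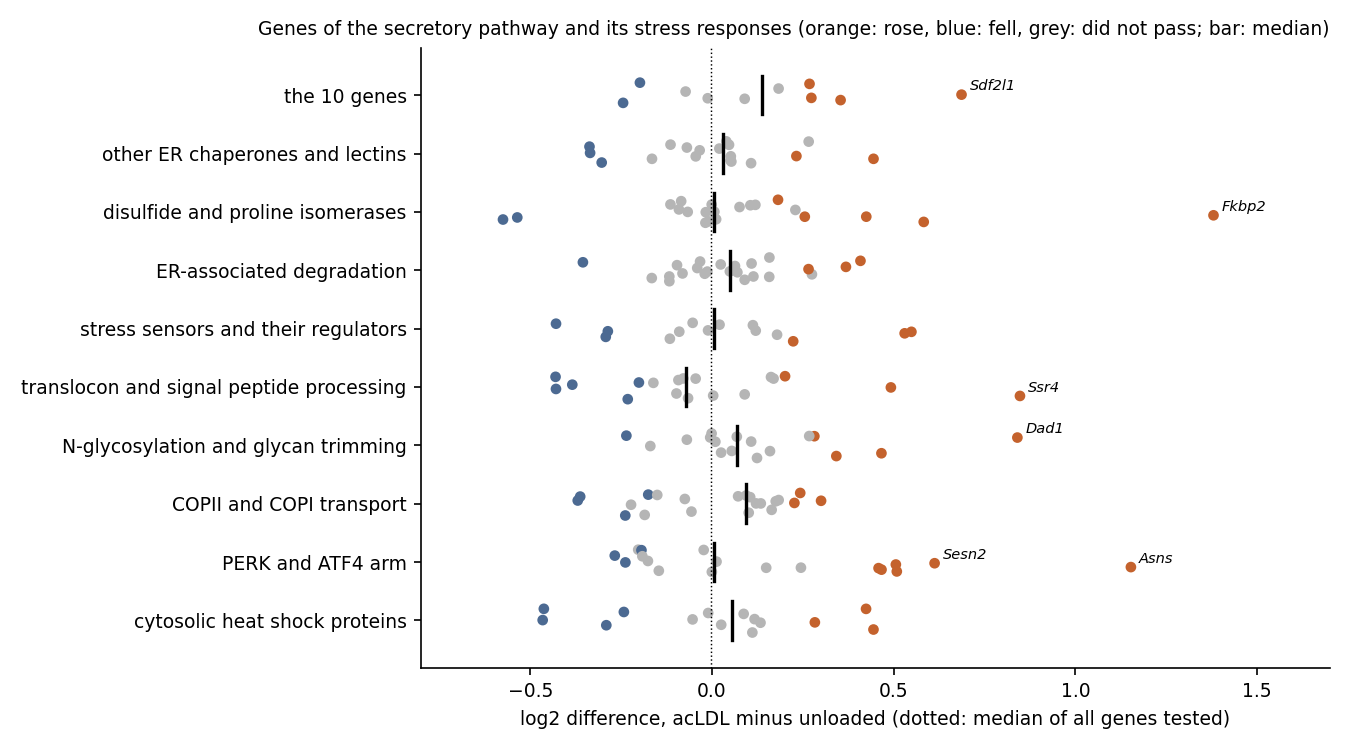
Log2 difference, acLDL minus unloaded (x axis), of every measured gene of the 10 genes and of each list (rows); points are genes, orange rose, blue fell and grey did not pass, black bars are medians, and the dotted line is the median of all genes tested. Fkbp2, Asns, Ssr4 and Dad1 lie farthest to the right, and rises and falls stand side by side in every row. The row of cytosolic heat shock proteins also holds Hspd1 and Hspe1, whose products are mitochondrial.

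Genes that hold an ERSE, chosen by sequence alone, were read as well. The 39 windows belong to 37 genes, of which 21 were tested, and 10 of these stand among the genes and lists above. Of the 21, Creld2 rose, Hspa5 fell and 19 did not pass, against 23.3% of all genes that changed, and their median log2 difference was -0.03. The chaperone genes Calr, Canx and Dnajc3, which were among them, differed by 0.05, -0.03 and 0.02 (log2), with 95% intervals that together spanned -0.16 to 0.18. The isomerase gene Pdia6 differed by -0.08 and the ubiquitin ligase gene Syvn1, which encodes HRD1, by -0.03, and none of these 5 passed. Of 9 tested genes with an ERSE-II, 3 rose (Herpud1, Krtcap2 and Rcl1), 1 fell (Rbm39) and 5 did not pass, the genes other than Herpud1 being named after their values were seen.

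The arrays carried macrophage RNA by their markers. Of 11 measured macrophage markers 10 lay above 6.12, the 95th percentile of the mean levels of olfactory receptor genes, which served as background, and all 10 genes did. Of the macrophage markers 6 rose, 1 fell and 4 did not pass (63.6% changed, against 23.3% of all genes). The summed linear level of the macrophage markers was 25670 to 28080 on the unloaded and 29690 to 30610 on the acLDL arrays. The most abundant of them, Cd68 and Lyz2, differed by -0.09 and 0.06 and did not pass. Fcer1g, the next in level, rose by 0.61 (log2). These markers too were named after their values were seen. Plasma cells, which are rich in these chaperones, were gauged by 12 markers, 4 of them also in the lists above. Their sums were 2618 to 2824 and 2624 to 2835, and 6 of the 12 markers lay above background. These sums come mostly from Sdc1, Xbp1 and Txndc5, with means of 9.70, 9.68 and 9.10 over all arrays (log2). Xbp1 is itself one of the 10 genes and Txndc5 stands in a list above, so the sums say little of plasma cells. Of the 12 markers, Prdm1 and Sdc1 fell, and Txndc5 and Tnfrsf17 rose, all named after their values were seen. Tnfrsf17 stood at 5.36 unloaded and 5.64 with acLDL (log2), below background, and Jchain stood at 4.11 and 4.10, also below it. Mzb1 stood just above background, at 6.31 and 6.26. Jchain and Mzb1 too were named after their values were seen. Fibroblast and mesothelial markers, 9 of 12 above background, summed to 5637 to 6872 unloaded and 5434 to 6015 with acLDL. The other lists summed to 616 to 680 and 622 to 680 for B cells, 655 to 730 and 611 to 679 for T cells, 412 to 432 and 375 to 401 for neutrophils, 679 to 731 and 581 to 603 for eosinophils and mast cells, and 495 to 581 and 506 to 540 for dendritic cells. The part of other cells in the differences of the 10 genes was not tested.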

How the data were processed

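The authors deposited log2 expression values of Affymetrix Mouse Gene 1.0 ST arrays, with RMA (robust multi-array averaging) named in the submitters' processing notes. Not given in the sources used here were its version, its settings and the set of arrays normalised together. RMA understates differences of dim genes and cannot show a shift common to all genes. Of 35557 probe sets 23410 were annotated, 21789 with 1 symbol, and RefSeq identifiers (GRCm38.p6) covered 21698 of these and changed 0 symbols. A gene was its single-symbol probe set with the highest mean, which gave 19938 genes. Groups came from the sample descriptions. The test was limma (version 3.58.1, R 4.3.3), fitted without a block by lmFit and eBayes. Its two-sided p-values were adjusted by Benjamini-Hochberg over all 19938 genes, with a threshold of 0.05. The test was tried on simulated data in which 200 of 19938 genes changed, far fewer than were called here. It recovered 44% of 1.25-fold and 90% of 1.5-fold changes there, and 6.18% of its calls were false. The standard error of a log2 difference had a median of 0.074, and the number of arrays limits precision. The members and lists were chosen with earlier results of these data known. Named genes were the 10 members, the 3 largest called differences of each list, Ern1, Eif2ak3 and Atf6, and the 5 genes most like the members' mean. Of 271 list entries 258 were measured. Promoter sequences come from RefSeq. Alternatives comprised the replicate block, every annotated probe set, probe sets averaged per gene, a dim filter at 6.12, quantile normalisation repeated, median centring, cyclic loess, a trended robust prior, array weights, removal of a trend with genomic span and dropping each array. Dropping unloaded arrays 1 and 4, or 2 and 3, was added after seeing the data.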

Additional observations from a re-analysis of the deposited data

Results flagged for a closer look

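In 5 of 90 groups of 4 arrays examined over 45 named genes, 1 array lay far from the other 3 by Dixon's criterion, which chance meets in about 1 of 20 groups. None of the 5 was among the 10 chaperone and stress genes. Hspa13 read 8.34 on acLDL array 3, against 8.52 to 8.54 on the others (log2). Atf6b read 9.27 on acLDL array 1, against 9.05 to 9.06. Sar1a read 10.00 on unloaded array 1, against 9.83 to 9.86. Tango2 and Etnk1, both named for their likeness to the mean of the 10 genes, read 8.01 and 9.01 on acLDL array 3, against 8.11 on each of the others and 9.15 to 9.16.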

How the results depend on the processing

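Of the 10 genes 6 were called changed, or 4 to 6 with a single array dropped and 5 to 7 in the other settings. Among all genes, 4650 were called, from 3618 to 4590 with an array dropped and from 4169 to 5324 in the other settings that test genes. With every annotated probe set tested, 6082 of 23410 probe sets were called. The 8 pathway lists and the heat shock list together held 58 called genes, from 48 to 62 and from 51 to 69. Removal of the trend with genomic span turned the split over all genes from 2565 higher and 2085 lower to 2215 higher and 3109 lower. Of 200 values recomputed for the 10 genes, 184 kept their side of the threshold, 12 lost it (Hspa5 and Dnajb9), 4 gained it (Hyou1) and 0 reversed; the cause was not tested. A value below the threshold in both settings counted as kept, whatever its sign. Equal replicate numbers were not treated as pairs. Deviations of same-numbered arrays correlated at 0.11, -0.16, 0.30 and 0.14, 3 of 4 above 0.1, and 3 of 8 arrays correlated best with their own number. With the replicate block 6 of the 10 genes, 62 list genes and 4860 of all genes were called. The number of arrays limits what can be said of small differences.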

Other observations

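Heat shock proteins outside the endoplasmic reticulum also went both ways. Of 14 measured members of that list 3 rose, 4 fell and 7 did not pass (50% changed, against 23.3% of all genes). Hspa4l and Dnaja1, which encode a nucleotide exchange factor and a J protein of the cytosol, fell by 0.47 and 0.46 on the log2 scale. Hspb1, a small heat shock protein, rose by 0.44 (limma adjusted p = 0.000822).

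Pdia4 has a further probe set, listed for a predicted transcript. It read 6.06 ± 0.11 on unloaded and 5.79 ± 0.06 on acLDL arrays (log2, SD, n = 4), a difference of -0.27 ± 0.07 (SE; limma adjusted p = 0.0112 over 23410 probe sets), whereas the main probe set of Pdia4 differed by -0.01. Both unloaded and acLDL levels of the further probe set lay below the background level of 6.12.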
